A study of Homo sapiens with 12 samples.

Results

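RNA sequencing of MOLM13, a human cell line established from acute myeloid leukaemia, was used to compare 2 guide RNAs that left different amounts of YBX1 mRNA. The comparison holds 4 libraries with sgRNA2 and 4 with sgRNA1, paired by replicate number, out of 12 libraries in the series. The remaining 4 libraries carried a guide vector that does not target YBX1 and are called control. They were used to place each gene on the scale set by YBX1. The members are the 10982 protein-coding genes, of 19755 listed, whose mean level over the 12 libraries was at least 4 on the log2 scale of the deposited values. No member was chosen by its difference between the guides.

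All 3 groups shared the same background. The cells stably expressed Cas9 from Lenti-Cas9-2A-Blast under blasticidin at 5 µg/ml, and received the pUSEPR guide vector, which carries puromycin resistance and the red fluorescent protein RFP. They were kept in puromycin at 1 µg/ml, sorted for RFP and lysed on day 7 after transduction. Polyadenylated RNA was read as 37 bp paired ends. The sgRNA2 and sgRNA1 cells are sorted pools in which Cas9 can leave different repair products in different cells, so a bulk level cannot tell fewer intact transcripts per cell from fewer intact cells. The control is labelled as an empty vector in one place and as non-targeting in another, and an effect of cutting cannot be told apart from an effect of YBX1 loss against it. Between the 2 guides, which both cut, an effect of the guide other than through YBX1 cannot be told apart from a dose of YBX1. YBX1 protein and the share of edited alleles were not analysed here.

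YBX1, the Y-box binding protein, has a cold-shock domain that binds single-stranded nucleic acids and packs mRNA into ribonucleoprotein particles, where it affects translation and mRNA stability. Many mRNAs of the translation machinery start with a 5-prime terminal oligopyrimidine (TOP) tract, a run of C and U letters through which growth signals set their translation. Myeloid leukaemia cells are blocked in differentiation, and monocyte surface receptors, S100 proteins and MHC class II genes are among those that rise when such cells mature.

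The library sgRNA2 3 stood apart, and this bears on every comparison of the guides. Its deviations from the group mean correlated across genes at 0.38 with control 3 and 0.53 with sgRNA1 3, against 0.75 with control 4 and 0.73 with sgRNA1 4, while control 3 and sgRNA1 3 correlated at 0.74. Over the 10981 genes other than YBX1, the difference of sgRNA2 over sgRNA1 had an SD of 0.137 in pair 3, against 0.0705, 0.086 and 0.0897 in pairs 1, 2 and 4, and 708 genes differed by over 0.25 in pair 3, against 20, 85 and 89. In pair 3 the difference fell with transcript length, with a Spearman rho of -0.54 over 10974 genes with an annotated length, against -0.06, -0.07 and -0.17 in pairs 1, 2 and 4. These correlations run over genes within one pair of libraries, so they carry no p. The median difference in pair 3 was 0.113 in the shortest of 10 length groups (median length 1141 bases) and -0.142 in the longest (9480 bases). Its correlation with GC content was 0.22 in pair 3, 0.51 in pair 4 and -0.37 in pair 1. The part of transcript length and GC content in the results was not tested, and list medians are therefore given with and without number 3. Depth per library is unknown, since no read counts were analysed.

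**Figure D1:**
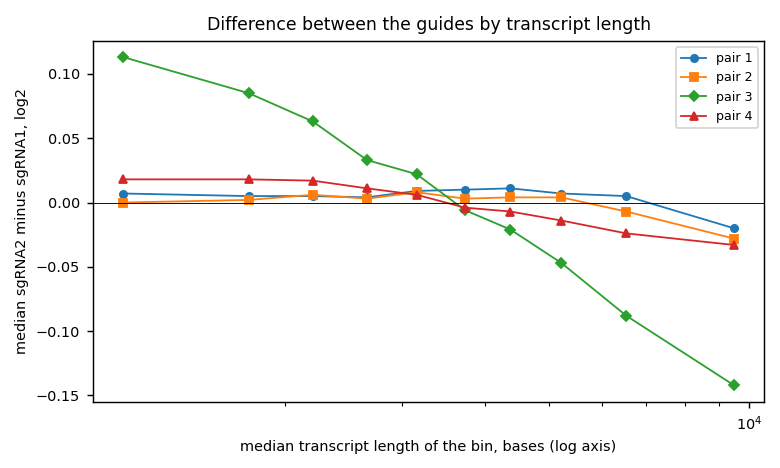
Difference between the guides by transcript length. The median of sgRNA2 minus sgRNA1 (log2, y axis) is drawn for 10 groups of genes of rising median transcript length (bases, log axis), 1 line per pair of libraries. Pair 3 runs from 0.113 at 1141 bases to -0.142 at 9480 bases, while pairs 1 and 2 stay between -0.028 and 0.011.

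The cells looked like myeloid leukaemia in all 3 groups. All 10 markers fixed for it were measured above the minimum level, among them FLT3 (means of 12.33 with sgRNA2, 12.34 with sgRNA1 and 12.29 in control) and CD33 (9.20, 9.18 and 9.17). The T cell, erythroid and fibroblast lists had 0 of 4 members each above the minimum, and HBB and COL3A1 were at 0.00 in every library. The epithelial list had 2 of 4 above it, KRT8 at 6.30 to 6.94 and KRT18 at 7.54 to 7.87, with KRT19 at 0.00, and the megakaryocyte list 1 of 4, ITGA2B at 3.92 to 4.53, with PF4 at 0.00. Of the B cell list 2 of 4 were above it. PAX5, a B cell factor, was at 8.98 to 9.45 and MS4A1, which marks B cells, at 0.00.

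YBX1 itself was higher with sgRNA2 than with sgRNA1 in every pair. It read 11.93, 12.07, 11.83 and 11.89 with sgRNA2 in libraries 1 to 4, against 11.20, 11.38, 11.08 and 11.09 with sgRNA1. Control libraries read 12.91, 12.96, 12.76 and 12.81. The 3 groups did not overlap. The difference of sgRNA2 over sgRNA1 was 0.75 on the log2 scale (SE 0.039, 95% interval 0.67 to 0.83, adjusted p = 2.72e-11 by limma with Benjamini-Hochberg adjustment), or 1.68-fold, and an exact two-sided permutation test of the 8 values gave p = 0.0286, the smallest that 70 arrangements allow. On this shrunken scale 52.6% of the control level was left with sgRNA2 and 31.3% with sgRNA1. The sgRNA2 change was thus 55.4% of the sgRNA1 change in log2 units, and this ratio sets the line against which other genes are read below. YBX1 lies on the forward strand at chr1:42682427-42702349 (GRCh38, GENCODE 29). Processed pseudogenes resembling YBX1 exist, so reads could be shared with them.

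No other gene passed for the difference between the guides. Of 10981 genes besides YBX1, 0 (0%) had an adjusted p under 0.05 by limma, 749 (6.82%) had an unadjusted p under 0.05, 375 higher (3.41%) and 374 lower (3.41%) with sgRNA2, and without the replicate number as a block 91 did (0.829%). The 95% interval, unadjusted for the number of genes, reached a median of 0.0975 to each side of the estimate and at most 0.269. Smaller differences of a single gene could not be told from none. Larger ones, as for EIF4B below, could still miss the adjusted threshold. The genes nearest to the threshold encode translation factors. EIF4B, the cofactor that stimulates the eIF4A helicase, read 12.12, 12.20, 12.03 and 12.06 with sgRNA2, against 11.83, 12, 11.69 and 11.75 with sgRNA1. Controls were at 12.69, 12.66, 12.76 and 12.78, and the 3 groups did not overlap. Its difference between the guides was 0.29 (SE 0.052, 95% interval 0.18 to 0.39, adjusted p = 0.0689 by limma), positive in 4 of 4 pairs.

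EIF4B crossed the threshold in 11 of 25 alternatives. The adjusted p was 0.0073 with control 2 left out, 0.00828 for control 3, 0.0456 for control 4, 0.0145 for sgRNA1 library 2, 0.0274 for sgRNA2 library 3 and 0.039 for number 2. It also crossed in the 8 guide libraries alone (5.54e-05). Over all its limma alternatives the adjusted p ran up to 1, which it had without the block. EIF3L, which encodes an eIF3 subunit, read 11.01, 11.23, 11.13 and 11.11 with sgRNA2, against 10.74, 11.05, 10.86 and 10.90 with sgRNA1, and 11.56, 11.65, 11.75 and 11.76 in control. The guide groups overlapped only where sgRNA1 library 2 exceeded sgRNA2 library 1, and within pairs sgRNA2 was higher in 4 of 4. The difference was 0.23 (95% interval 0.14 to 0.32, adjusted p = 0.122, limma). It passed in 4 alternatives, without control 2 (0.0222) or control 3 (0.0499), in libraries 1 and 2 (0.0144) and in the 8 guide libraries alone (0.00211).

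The next genes were EEF1B2, NOP53 and MS4A6A. EEF1B2, a subunit of the exchange factor that recharges elongation factor eEF1A, read 12.63, 12.83, 12.84 and 12.80 with sgRNA2, against 12.46, 12.70, 12.53 and 12.62 with sgRNA1, and 12.89, 13.04, 12.93 and 13.02 in control. NOP53, a nucleolar factor of large ribosomal subunit assembly, read 12.63, 13.02, 13.07 and 13.02 with sgRNA2, against 12.51, 12.87, 12.83 and 12.77 with sgRNA1, and 12.83, 13.09, 13.11 and 13.23 in control. Both were between sgRNA1 and control on average, and both were higher with sgRNA2 in 4 of 4 pairs while the libraries of the 2 guides overlapped. The differences were 0.20 (95% interval 0.11 to 0.28, adjusted p = 0.228, limma) for EEF1B2 and 0.19 (0.10 to 0.28, 0.375) for NOP53. MS4A6A, a myeloid membrane protein of the MS4A family, was of another kind. It read 9.29, 9.01, 8.92 and 8.89 with sgRNA2, against 9.09, 8.69, 8.62 and 8.71 with sgRNA1, and 8.98, 8.96, 8.57 and 8.68 in control. The sgRNA1 mean of 8.78 was close to the control mean of 8.80, and the difference between the guides was 0.25 (0.14 to 0.36, adjusted p = 0.24, limma). MS4A6A passed without control 2 (0.0378) and in libraries 1 and 2 (0.0317). In the 8 guide libraries alone EEF1B2 (0.0208), NOP53 (0.0225) and MS4A6A (0.00729) passed.

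UBA7, the activating enzyme for the ubiquitin-like protein ISG15, lay on opposite sides of control with the 2 guides. It read 8.95, 9.06, 9.50 and 9.42 with sgRNA2, against 8.88, 8.81, 9.32 and 9.19 with sgRNA1, and 8.90, 8.89, 9.32 and 9.37 in control. In each number sgRNA2 was above control. The sgRNA1 level was below control by little, and in number 3 both read 9.32. The difference of 0.18 between the guides (95% interval 0.09 to 0.27) had an adjusted p of 0.546 by limma. SPP1, which encodes osteopontin, a secreted phosphoprotein made by macrophages, had the largest difference after YBX1 and was chosen after its values were seen. It read 7.11, 6.66, 8.02 and 7.81 with sgRNA2, against 6.87, 6.65, 7.38 and 7.45 with sgRNA1, and 6.51, 6.83, 7.19 and 6.89 in control. Its difference of 0.31 (0.09 to 0.53, adjusted p = 0.617, limma) came to 0.65 in pair 3 and to 0.00 in pair 2. SPP1 passed in the 8 guide libraries alone and without number 2.

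On the other side stood genes with lower levels in sgRNA2 cells, none past the threshold in the fit of all 12 libraries. Genes with the longest transcripts had a negative median difference in each pair, at -0.020, -0.028, -0.142 and -0.033 in pairs 1 to 4. The part of length in the genes named here was not tested. MDN1, the dynein-like ATPase that remodels pre-ribosomes of the large subunit, read 11.66, 11.78, 11.42 and 11.50 with sgRNA2, against 11.88, 12.02, 11.71 and 11.60 with sgRNA1, and 11.47, 11.89, 11.74 and 11.49 in control. POU2F1, the octamer-binding transcription factor OCT1, read 9.71, 9.81, 9.60 and 9.62 with sgRNA2, against 9.86, 9.97, 9.96 and 9.76 with sgRNA1, and 9.69, 9.87, 10.03 and 9.68 in control. The libraries of the 2 guides overlapped for both genes, which were lower with sgRNA2 in 4 of 4 pairs. The differences were -0.21 (95% interval -0.33 to -0.10) for MDN1 and -0.20 (-0.31 to -0.09) for POU2F1, with an adjusted p of 0.546 each (limma). TLN2, a talin that links integrins to actin, PTPN13, a protein tyrosine phosphatase, HUNK, DOP1B, DZIP1 and ADAMTS9 complete the 8 genes of smallest p in this direction, with differences of -0.20 to -0.17. In the 8 guide libraries alone MDN1 (adjusted p = 0.00819), POU2F1 (0.0225) and DOP1B (0.0367) passed by limma, and MDN1 did so in libraries 1 and 2 (0.0144).

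The question of which genes follow the remaining YBX1 was asked with the slope of the 3 group means on the 3 YBX1 means, in log2 units per log2 unit of YBX1. The slope uses control, so it rests on the change from control as well as on the difference between the guides. A total of 389 of 10981 genes passed (3.54%), of which 223 ran with YBX1 (2.03%) and 166 against it (1.51%). Of the 389 genes, 285 (73.3%) had their sgRNA2 mean between those of sgRNA1 and control, and 104 (26.7%) had sgRNA2 farther from control than sgRNA1. Over all genes these shares were 35.5% and 40.6%. The slope is built from the same group means, so picking genes by it favours the first order. The shares are therefore no test of that order. The count was 4 without the block (0.0364%), EIF4B, EIF3L, FBXO33 and EIF3D. It was 148 when control 1 was left out, 131, 238, 148 and 228 for sgRNA1 libraries 1 to 4, and 793 for sgRNA2 library 3. Leaving out number 1 gave 81 genes and number 4 gave 206.

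EIF4B and EIF3L had the steepest slopes, 0.55 (SE 0.031) and 0.48 (SE 0.026), with an adjusted p of 4.96e-11 each (limma). Their sgRNA2 levels were 65.2% and 67.8% of control and their sgRNA1 levels 53.4% and 57.8%, so that sgRNA2 had 68.2% of the sgRNA1 change for EIF4B and 70.9% for EIF3L, where YBX1 had 55.4%. EIF3D, the cap-binding subunit of eIF3, read 11.91, 12.04, 11.94 and 11.93 with sgRNA2, against 11.81, 11.97, 11.80 and 11.86 with sgRNA1, and 12.15, 12.21, 12.23 and 12.30 in control. Its slope was 0.22 (SE 0.025, adjusted p = 8.08e-06, limma), and control stood above both guides while the guides overlapped. EEF1B2 had a slope of 0.23 (adjusted p = 4.82e-06) and NOP53 of 0.19 (0.0001). EEF1B2 lost its call only without the block (0.0698), as did NOP53 (0.645).

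ODC1, which catalyses the entry step of polyamine synthesis, read 10.70, 10.66, 10.49 and 10.47 with sgRNA2, against 10.46, 10.66, 10.17 and 10.34 with sgRNA1, and 11.22, 10.99, 10.74 and 10.86 in control. RPL4, a protein of the large ribosomal subunit, read 14.66, 14.88, 14.90 and 14.88 with sgRNA2, against 14.46, 14.75, 14.69 and 14.72 with sgRNA1, and 14.96, 15.09, 15.11 and 15.12 in control. Within each number RPL4 kept the order control, sgRNA2, sgRNA1, and ODC1 did so in all but number 2, where the guides were level. The slopes were 0.33 for ODC1 (adjusted p = 9.44e-07) and 0.25 for RPL4 (4.89e-06), by limma. FBXO33, an F-box protein that marks YBX1 for ubiquitination, read 7.19, 7.25, 7.12 and 7.08 with sgRNA2, against 7.08, 7.14, 7.03 and 7.05 with sgRNA1, and 7.74, 7.70, 7.45 and 7.56 in control. Its sgRNA2 change was 84.2% of its sgRNA1 change, with a slope of 0.33 (adjusted p = 3.16e-07). PABPC4, a poly(A)-binding protein, and AHCY, which hydrolyses S-adenosylhomocysteine, had slopes of 0.21 (4.89e-06) and 0.23 (4.89e-06). Among cold-shock relatives, YBX3 had a slope of 0.11 (adjusted p = 0.00985) with levels of 11.61 with sgRNA2, 11.59 with sgRNA1 and 11.76 in control, and CARHSP1 (0.00, adjusted p = 0.971) did not pass.

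**Figure D2:**
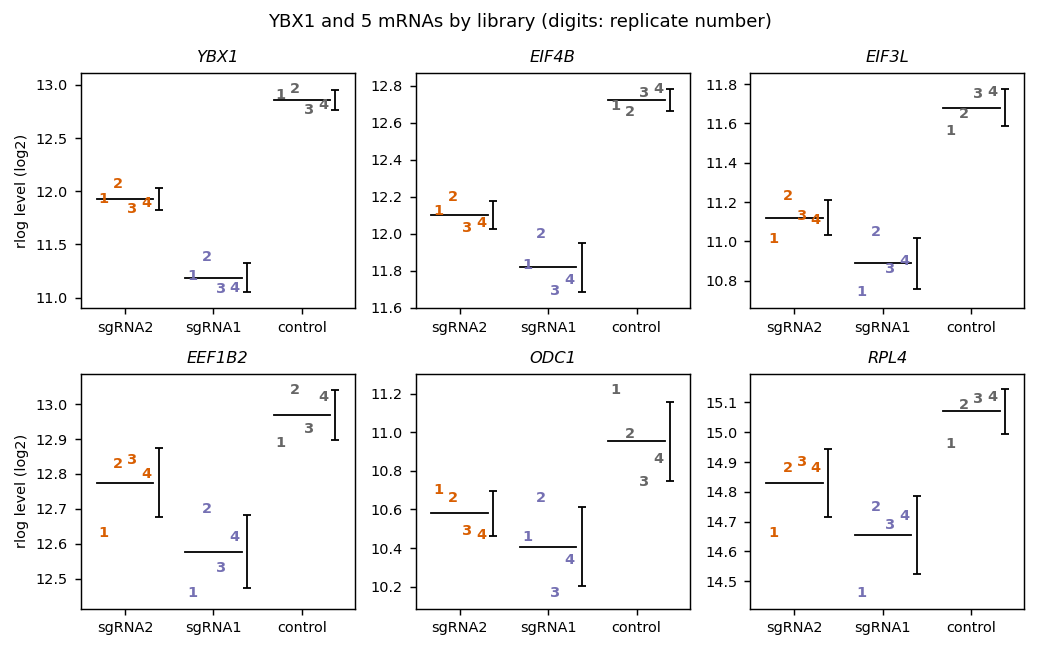
Levels of YBX1 and 5 mRNAs whose slope on YBX1 passed. Each digit is a library of that replicate number, on the rlog log2 scale (y axis), for sgRNA2, sgRNA1 and control, with a line at the group mean and a bar of 1 SD (n = 4 each). The control mean is highest, the sgRNA1 mean lowest and the sgRNA2 mean between them in all 6 panels, with YBX1 means of 11.93, 11.18 and 12.86 for sgRNA2, sgRNA1 and control.

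The start sites of some genes that ran with YBX1 are shown because their mRNAs belong to the TOP class, whose members begin with a pyrimidine run. Each window is given 5′ to 3′ on the strand of the gene, from 10 bases before to 20 bases from the start annotated by RefSeq (GRCh38.p14), with the longest run of C or T in capitals. For genes with several annotated starts the one with the longest run was taken. The last 4 are genes whose sgRNA2 level lay above the line set by YBX1, with longer runs in S100A4 and MS4A6A than in TNF and RASSF4. The marked run covers the annotated start in EIF3D, EEF1B2, NOP53 and RPS3. It begins after the start in EIF4B, RPL4, S100A4, TNF and RASSF4, and reaches the end of the window in EIF4B. In MS4A6A it lies wholly before the start shown, so it is not part of a transcript from that start.
EIF4B: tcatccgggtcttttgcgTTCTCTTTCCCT
EIF3D: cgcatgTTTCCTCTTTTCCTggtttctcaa
EEF1B2: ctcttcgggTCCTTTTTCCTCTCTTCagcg
NOP53: tggctgagTTCTTCCTTTgacaagatggcg
RPL4: cgggagtggtaagcaCTTCCTTTTCCTgtg
RPS3: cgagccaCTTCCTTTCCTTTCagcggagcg
S100A4: ggccgtccccaTTCTTCCCCTCTCTacaac
MS4A6A: gCTCCTTTTTaatcaaagctcaggaggaga
TNF: acacccagccagcagacgCTCCCTCagcaa
RASSF4: cgctgcgggcgcagCTCCggtgcaagcgag

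The windows lie at chr12:53006446-53006475 (+) for EIF4B, chr22:36529147-36529176 (-) for EIF3D, chr2:206159885-206159914 (+) for EEF1B2, chr19:47745536-47745565 (+) for NOP53 and chr15:66504836-66504865 (-) for RPL4. Those of RPS3, TNF and RASSF4 are at chr11:75399508-75399537 (+), chr6:31575555-31575584 (+) and chr10:44959792-44959821 (+), and those of S100A4 and MS4A6A at chr1:153545787-153545816 (-) and chr11:60184428-60184457 (-). The runs are 12 letters long in EIF4B and RPL4, 14 in EIF3D and RPS3, 17 in EEF1B2 and 10 in NOP53, and 14 in S100A4, 9 in MS4A6A, 7 in TNF and 4 in RASSF4. A run of at least 8 C or T letters, searched on the strand of the gene only, was present in 12.7% of all 35116 promoter windows and in 17.8% of the 8812 tested genes that matched by symbol. It was present in 33% of 176 matched genes that ran with YBX1, in 23.2% of 125 that ran against it, in 50% of the 8 matched genes above the line, in 84.2% of 38 large-subunit and in 88% of 25 small-subunit ribosomal protein genes. Such a run can lie before, across or after the annotated start, so it describes the window and is not a test of a TOP motif.

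Of the genes that ran against YBX1, KSR1 and ADA2 had the smallest p. KSR1, a scaffold of the RAF-MEK-ERK cascade, read 9.37, 9.23, 9.05 and 9.06 with sgRNA2, against 9.63, 9.28, 9.20 and 9.03 with sgRNA1, and 9.14, 8.96, 8.77 and 8.66 in control. ADA2, a secreted adenosine deaminase of monocytes, read 8.72, 8.94, 8.83 and 8.72 with sgRNA2, against 8.72, 8.84, 8.87 and 8.78 with sgRNA1, and 8.16, 8.67, 8.22 and 8.19 in control. Both were above control within every number, but KSR1 was higher with sgRNA1 in 3 of 4 pairs while the ADA2 means of the guides were level at 8.80. The slopes were -0.24 for KSR1 and -0.30 for ADA2, with an adjusted p of 9.5e-06 each (limma). The ADA2 difference between the guides was 0.00 with a 95% interval of -0.12 to 0.13, and its departure from the line was 0.22 (adjusted p = 0.0864). CA2, a carbonic anhydrase, was the closest to the line of the 8 named for this direction, with means of 7.55 with sgRNA2, 7.72 with sgRNA1 and 7.34 in control, and 56.6% of the sgRNA1 change in sgRNA2 cells. SCUBE1, TBC1D8, CDHR1 and HK3 had slopes of -0.33 to -0.19.

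Genes that changed with the guides as a pair changed about as much with either guide. The mean of both guides against control was used to pick them, since its error is independent of the difference between the guides in this balanced design. It called 694 of 10981 genes (6.32%), 351 lower (3.2%) and 343 higher (3.12%) with the guides. Among the 351 lower genes the median change was -0.160 with sgRNA2 and -0.164 with sgRNA1, and the median difference between the guides was 0.007, where a change in proportion to YBX1 would give 0.092. The sgRNA2 level was the higher one in 198 of them (56.4%), against 51.4% of all genes. Among the 343 higher genes the median change was 0.180 with sgRNA2 and 0.163 with sgRNA1, and the median difference was 0.024, where proportion to YBX1 would give -0.097. The sgRNA2 level was lower, hence nearer to control, in 118 of these (34.4%). Both sets were picked by their change from control, so the values for proportion to YBX1 may be too large.

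The pairs did not give one answer. Of the 351 lower genes, 80.1% were higher with sgRNA2 in pair 1, 58.4% in pair 2, 47% in pair 3 and 50.7% in pair 4. Of the 343 higher genes, 33.2% were higher with sgRNA2 in pair 1, against 63.6%, 67.3% and 65.3% in pairs 2, 3 and 4. Pair 1 thus had the order of YBX1 in both sets, and the other pairs had it less or not at all. Without number 3 the shares of these fixed genes in the order of YBX1 were 64.4% of the lower and 39.7% of the higher genes. Without number 1 they were 48.1% and 28.3%. In libraries 1 and 2 alone they were 73.5% and 47.2%, and in libraries 3 and 4 alone 47.6% and 30.6%. Counting genes against control for each guide on its own, with the same 4 control libraries in both, 433 genes passed with sgRNA2 (3.94%), 238 higher (2.17%) and 195 lower (1.78%), and 351 with sgRNA1 (3.2%), 151 higher (1.38%) and 200 lower (1.82%). The count for the mean of both guides was 5 without the block (0.0455%). With YBX1 included it was 695, and it became 238 when control 1 was left out, 303 for control 3, 363 for sgRNA1 library 1, 171 for number 1 and 411 for number 3.

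**Figure D3:**
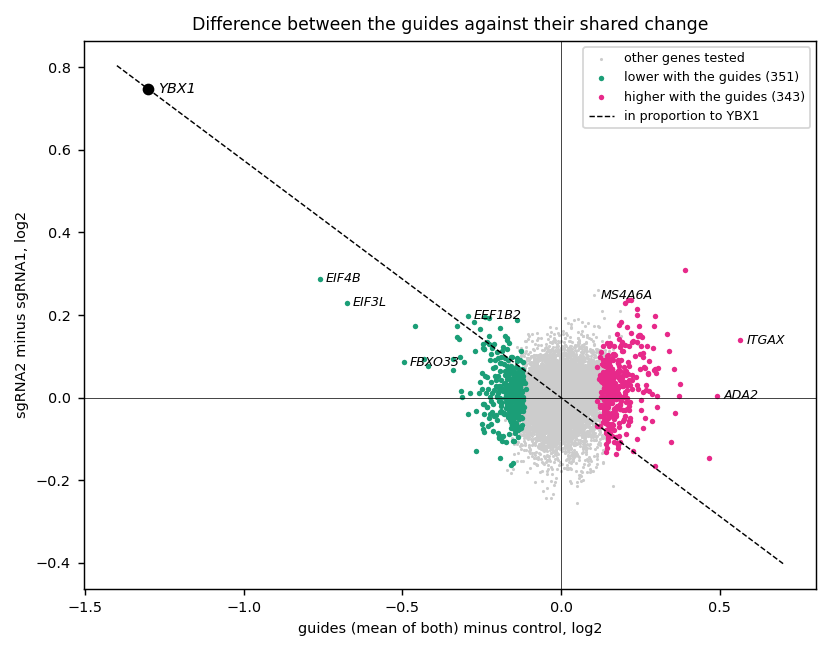
Difference between the guides against their shared change. Each point is a gene, with the mean of both guides minus control on the x axis and sgRNA2 minus sgRNA1 on the y axis (both log2), green for 351 genes lower and pink for 343 genes higher with the guides. The dashed line is what proportion to YBX1 would give. EIF4B and EIF3L lie toward it, while the pink genes have a median of 0.024 on the y axis, above 0.

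Genes that differ without following YBX1 were sought with the departure of the sgRNA2 mean from the line drawn between sgRNA1 and control at the YBX1 ratio. A total of 11 genes passed (0.1%), all above the line. They were ITGAX, FGD2, PNPLA7, S100A4, TNF, COL9A2, MYO1G, RASSF4, MS4A6A, FCER2 and DHRS9, of which the last 3 were outside the 8 set by rule and were named after their values were seen. In 10 of the 11 the sgRNA2 level was farther above control than the sgRNA1 level, and in MS4A6A sgRNA1 was on the other side of control. The genes were picked for an sgRNA2 level off the line, so this order largely follows from the selection. Over all genes sgRNA2 was farther from control than sgRNA1, on the same side, in 40.6%. The count was 0 by limma without the block, where 175 genes (1.59%) had an unadjusted p under 0.05, against 1244 (11.3%) with it. Leaving out sgRNA1 library 4, sgRNA2 library 3, sgRNA2 library 4, number 3 or number 4 also gave 0. The count was 2 when control 1 or number 1 was left out, 1 for sgRNA1 library 2 and 3 for sgRNA1 library 3. It was 59 for control 2, 20 for sgRNA1 library 1, 23 for sgRNA2 library 2 and 36 for number 2. All 11 departures were above 0 in each alternative in which the gene was tested. The alternatives reuse the libraries in which these genes were picked as above the line, so the kept sign is no separate test.

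ITGAX, the integrin alpha chain CD11c of monocytes and dendritic cells at chr16:31355134-31382997, had the largest departure of the 11 (SPP1, which did not pass, had 0.42 with an adjusted p of 0.0864). It read 7.21, 7.18, 7.76 and 7.70 with sgRNA2, against 7.16, 6.95, 7.63 and 7.55 with sgRNA1, and 6.67, 6.75, 7.05 and 6.84 in control. All sgRNA2 libraries were above all controls, and within numbers the order was sgRNA2, sgRNA1, control. The departure was 0.36 (SE 0.055, adjusted p = 0.0134, limma), and 1 without the block. FGD2, an exchange factor for the GTPase CDC42 in antigen-presenting cells, read 7.91, 7.69, 7.66 and 7.77 with sgRNA2, against 7.73, 7.43, 7.50 and 7.44 with sgRNA1, and 7.51, 7.56, 7.27 and 7.38 in control. Its sgRNA2 libraries stood above all controls and its sgRNA1 libraries overlapped them. The departure was 0.28 (SE 0.048, adjusted p = 0.0272) and the difference between the guides 0.24 (95% interval 0.12 to 0.35, adjusted p = 0.492). In the 8 guide libraries alone that difference passed for FGD2 (0.0226), TNF (0.0225) and FCER2 (0.0385), and for FCER2 also in libraries 3 and 4 (0.0104).

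TNF, the inflammatory cytokine tumour necrosis factor, read 9.64, 9.78, 9.39 and 9.41 with sgRNA2, against 9.54, 9.53, 9.21 and 9.15 with sgRNA1, and 9.48, 9.58, 8.86 and 8.95 in control. S100A4, a calcium-binding protein of motile cells, read 9.98, 9.42, 10.15 and 10.03 with sgRNA2, against 9.87, 9.31, 9.85 and 9.87 with sgRNA1, and 9.79, 9.25, 9.65 and 9.72 in control. All 3 groups overlapped for both genes, whose libraries differed more by number than by group. The departures were 0.26 for TNF and 0.23 for S100A4 (adjusted p = 0.0272 each, limma). FCER2, the low-affinity IgE receptor CD23, read 7.09, 6.91, 6.74 and 6.79 with sgRNA2, against 7.03, 6.66, 6.41 and 6.49 with sgRNA1, and 6.71, 6.83, 6.31 and 6.33 in control. MYO1G, a class I myosin of blood cells, read 11.09, 11.17, 11.55 and 11.47 with sgRNA2, against 11.06, 11.03, 11.43 and 11.25 with sgRNA1, and 10.75, 10.98, 11.18 and 11.11 in control. Within each number sgRNA2 was the highest for both. Departures were 0.28 for FCER2 (adjusted p = 0.0336) and 0.21 for MYO1G (0.0272).

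The other 5 had departures of 0.18 to 0.24. PNPLA7, a lysophospholipase, had group means of 5.45 with sgRNA2, 5.27 with sgRNA1 and 5.18 in control. RASSF4, a RAS-association domain protein, had 11.11, 10.98 and 10.86, COL9A2, a chain of type IX collagen, 7.64, 7.46 and 7.31, and DHRS9, a retinol dehydrogenase, 8.90, 8.75 and 8.58, each in the order sgRNA2, sgRNA1, control. Within all 4 pairs sgRNA2 was above sgRNA1 for each of these genes and for MS4A6A.

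**Figure D4:**
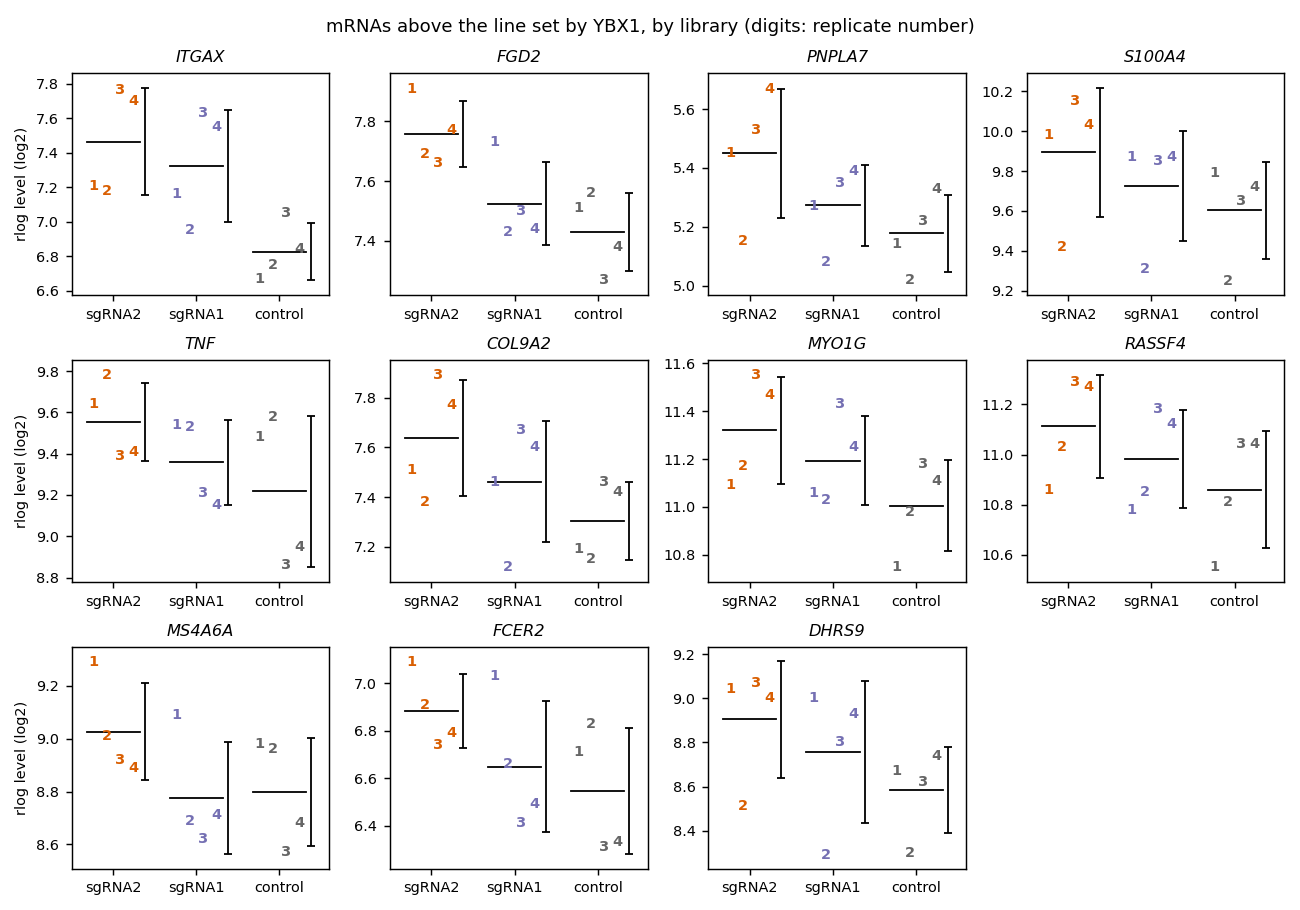
Levels of the 11 mRNAs above the line set by YBX1. Each digit is a library of that replicate number on the rlog log2 scale (y axis), for sgRNA2, sgRNA1 and control, with a line at the group mean and a bar of 1 SD (n = 4 each). The sgRNA2 mean is the highest of the 3 in every panel, as for ITGAX with 7.46, 7.32 and 6.83, and the spread over numbers is often larger than the distance between groups.

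The genes of the translation machinery ran with YBX1 as far as they passed. None of the 29 gene lists had a member other than YBX1 past the threshold for the difference between the guides, and the lists are described by their counts and medians. Of 47 large-subunit ribosomal protein genes 13 had a slope that passed, all with YBX1, and of 32 small-subunit genes 5, all with YBX1, where 2.03% of all genes passed in that direction, such as RPL6 (0.24, adjusted p = 5.39e-06), RPL5 (0.19, 0.000203), RPS16 (0.18, 0.00125) and RPS3 (0.17, 0.00648). The median difference of sgRNA2 over sgRNA1 was 0.074 for the large and 0.086 for the small subunit, against 0.002 for all genes. The difference was above 0 in 43 of 47 and 28 of 32, against 51.4% of all genes. The part of transcript length in the medians of these lists was not tested. Their median transcript lengths were 1170 and 1222 bases, against 3451 for all genes, and their medians in pair 3 were 0.185 and 0.187. Without number 3 the medians were 0.044 and 0.048, with 45 of 47 and 31 of 32 above 0. Of these genes 26 and 20 were higher with sgRNA2 in all 4 pairs, as were 962 of all 10981 genes.

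The 26 other TOP mRNAs held EIF4B, EIF3L, EEF1B2 and PABPC4, and 12 had a slope that passed, all with YBX1 (2.03% of all genes). Their median difference between the guides was 0.058 (0.034 without number 3), at a median length of 3106 bases. The difference was above 0 in 23 of 26 (51.4% of all genes). In all 4 pairs 15 were higher with sgRNA2 (962 of all 10981 genes). RACK1, a ribosomal scaffold protein, had means of 14.43 with sgRNA2, 14.31 with sgRNA1 and 14.54 in control (slope adjusted p = 0.005, limma). EIF3F, a subunit of eIF3, had 11.24 with sgRNA2, 11.10 with sgRNA1 and 11.40 in control, and a slope of 0.18 (adjusted p = 0.000175). IPO7, an importin that was also lower with the guides, had 11.55, 11.58 and 11.80, hence no more with sgRNA2 than with sgRNA1. The 39 translation initiation factors had 5 slopes that passed, all with YBX1, beside the same 2.03%, and a median difference of 0.005. Of 4 factors that the study had picked in these cells, EIF4B, EIF3L, EIF3D and EEF2, the slopes of all 4 passed, which is not independent evidence of their direction. EEF2, the translocase of elongation, read 16.22, 16.44, 16.26 and 16.25 with sgRNA2, against 16.13, 16.33, 16.26 and 16.08 with sgRNA1, and 16.45, 16.53, 16.73 and 16.63 in control. Its difference between the guides of 0.09 had a 95% interval of -0.03 to 0.22.

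Many genes of cell division fell with the guides, and most had their lowest mean with sgRNA2, which kept more YBX1 mRNA. Of 26 genes of G2 and mitosis 14 were lower with the guides by limma, 12 on their own with sgRNA2 and 2 with sgRNA1, against the same controls. Over all genes these shares were 3.2%, 1.78% and 1.82%. The median change from control was -0.149 with sgRNA2 and -0.111 with sgRNA1, and in 20 of 26 sgRNA2 was farther from control than sgRNA1, as in 40.6% of all genes. AURKA, a mitotic kinase, had means of 9.44 with sgRNA2, 9.42 with sgRNA1 and 9.61 in control. TOP2A, the topoisomerase of chromosome separation, had 12.37 with sgRNA2, 12.47 with sgRNA1 and 12.61 in control. The difference between the guides had a median of -0.033 over the list, of -0.020 without number 3 and of 0.029 in pair 1. In libraries 1 and 2 alone it was -0.001, with 13 of 26 above 0, so the order was not seen there. Of 40 genes of DNA replication and S phase, 9 were lower with the guides, and 26 had sgRNA2 farther from control, with a median difference of -0.025. None of these differences passed for a single gene.

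The genes of monocyte differentiation had mostly positive differences of sgRNA2 over sgRNA1, against the order of YBX1. None was past the threshold in the fit of all 12 libraries, while LYZ passed in the 8 guide libraries alone. Of 27 measured of 40 listed, 13 were higher with the guides by limma (3.12% of all genes) and none lower. The difference between the guides was above 0 in 26 of 27 (51.4% of all genes), with CEBPB the exception. It had a median of 0.108, against 0.002 for all genes, and had an unadjusted p under 0.05 in 11, all higher (3.41% of all genes). The median change from control was 0.205 with sgRNA2 and 0.090 with sgRNA1. LYZ, lysozyme, had means of 11.87 with sgRNA2, 11.66 with sgRNA1 and 11.64 in control, ITGAM, the integrin chain CD11b, 9.09, 8.95 and 8.78, and CSF1R, the receptor of macrophage colony-stimulating factor, 8.61, 8.46 and 8.28. IRF8, a transcription factor of monocytes, had 12.85 with sgRNA2, 12.72 with sgRNA1 and 12.79 in control. The list median was above 0 in each pair, at 0.037, 0.102, 0.128 and 0.092, and was 0.096 without number 3, with 24 of 27 above 0. The median transcript length was 2813 bases, against 3451 for all genes, and the part of length and GC content in this list was not tested.

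MHC genes had a like pattern. Of 16 measured of 21 listed, 13 had a difference between the guides above 0 (51.4% of all genes), with a median of 0.091 (0.101 without number 3). An unadjusted p under 0.05 was found for 7, all higher (3.41% of all genes). HLA-DRA, a chain of MHC class II, had means of 7.36 with sgRNA2, 7.14 with sgRNA1 and 7.01 in control, and CD74, its invariant chain, 11.03, 10.88 and 10.78. Among class I genes HLA-B had 12.13 with sgRNA2, 11.98 with sgRNA1 and 12.04 in control. HLA genes are near-identical in part, so reads may be assigned between them. The 22 measured interferon-stimulated genes had a median of 0.053, and 4 had an unadjusted p under 0.05 for the difference, all higher, beside the same 3.41%. Granule proteins had a median of -0.024 over 10 genes, and 3 slopes passed, 1 with YBX1 (2.03% of all genes) and 2 against it (1.51%). BPI, an antibacterial granule protein, had a slope of -0.17 (adjusted p = 0.0122) and RNASE2, a granule ribonuclease, of -0.11 (0.0264), by limma. MPO, the peroxidase of primary granules, read 9.52, 9.48, 9.75 and 9.64 with sgRNA2, against 9.45, 9.25, 9.70 and 9.70 with sgRNA1, and 9.81, 9.87, 10.03 and 10.22 in control, with a slope of 0.28 (adjusted p = 5.53e-06, limma) and 83.3% of the sgRNA1 change in sgRNA2 cells. MYC mRNA read 13.05, 13.01, 13.10 and 13.16 with sgRNA2, against 13.09, 13.05, 13.02 and 13.12 with sgRNA1, and 13.02, 12.95, 12.98 and 13.19 in control, and its difference of 0.01 between the guides had a 95% interval of -0.08 to 0.10.

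The remaining lists held few calls for the slope, which passed in 3.54% of all genes, so that a single call in a list of this size is near the background. Oxidative phosphorylation had a median difference of 0.050 over 39 genes, 33 above 0, but 0.020 without number 3, and 1 slope that passed, that of ATP5F1A, a subunit of ATP synthase (0.12, adjusted p = 0.00838). Proteins that bind poly(A) or package mRNA had 4 slopes of 29 that passed, all with YBX1, among them G3BP1, a stress granule protein, with means of 11.41 with sgRNA2, 11.40 with sgRNA1 and 11.66 in control. MYC targets had 4 of 29 with YBX1 and a median difference of -0.005, and ribosome biogenesis 2 of 32 and -0.009. Elongation and termination factors had 2 of 10 with YBX1 and a median difference of -0.025. One slope each passed with YBX1 among aminoacyl-tRNA synthetases (QARS, 0.20), p53 targets (CCNG1, 0.10), the integrated stress response (PSAT1, 0.11), chaperones (CCT5, 0.10), cholesterol and fatty acid synthesis (SCD, 0.15) and splicing factors (HNRNPA1, 0.11), with list medians of -0.015 to 0.026. Of these, sgRNA2 had 65.2% of the sgRNA1 change for QARS, but 121% for PSAT1 and 107% for CCT5, hence no return toward control. Glycolysis and hypoxia had LDHA with YBX1 and HK3 against it, with a median of 0.022. HOXA5 of the HOX and MEIS1 programme (median -0.023), KSR1 of MAPK feedback (0.016) and HIST1H2BK of the histone genes (0.041) ran against YBX1. The proteasome (median 0.019, 31 genes) and the myeloid transcription factors (0.018, 21 genes) held no slope that passed by limma.

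**Figure D5:**
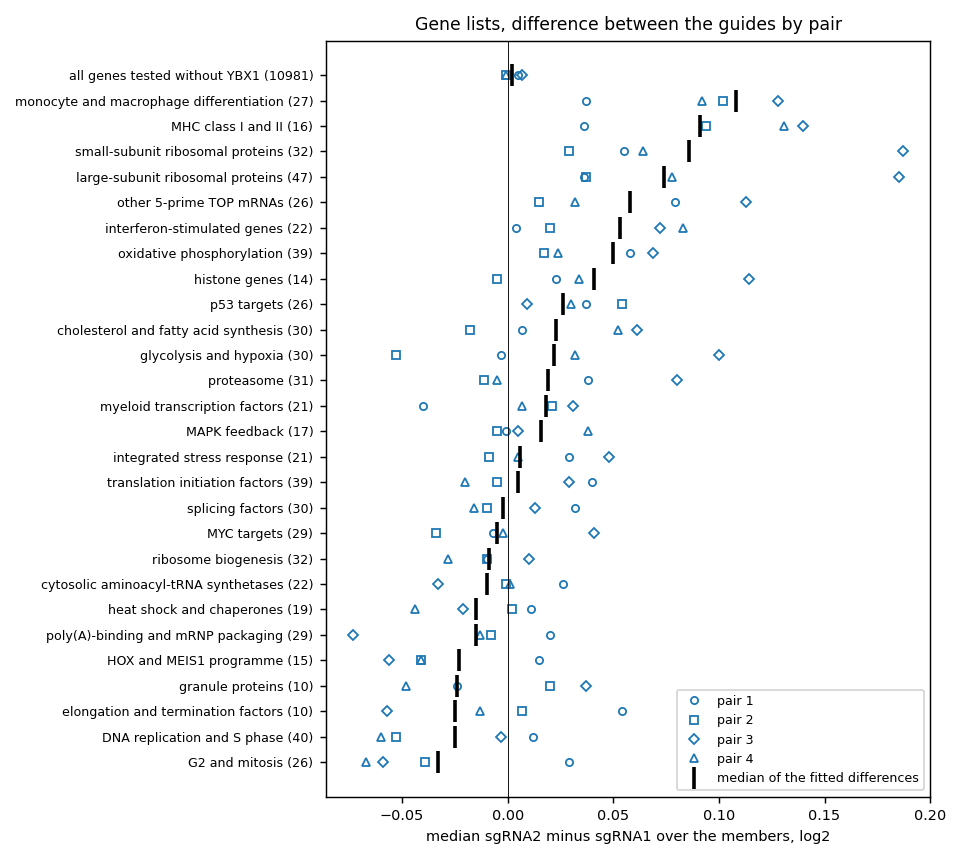
Median difference between the guides over the gene lists with 10 or more measured genes. The x axis is the median of sgRNA2 minus sgRNA1 over the members (log2), with open symbols for the 4 pairs and a black bar for the fitted difference, and the number of genes in brackets. Monocyte differentiation (0.108) and MHC genes (0.091) stand highest with every pair above 0, ribosomal proteins (0.086 and 0.074) follow with pair 3 far to the right at 0.187 and 0.185, and G2 and mitosis stands lowest at -0.033.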

How the data were processed

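The submitters' processing notes name STAR 2.7.5a, HTSeq 0.6.1pl, Picard 2.9.4, bcl2fastq 2.20.0.422 and DESeq2, with GRCh38. Parameters and the annotation release are not given in the sources used here, and the deposited table is marked as made with duplicate reads removed, a step that acts most on abundant transcripts. What the authors made from them is a log2 value (rlog) per gene and library, scaled by size factors and shrunken at low counts, which makes differences of weak genes smaller. Deposited fold changes with adjusted p-values and z-scores of the same values were not used.

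Genes with a mean rlog of at least 4 entered limma 3.58.1 (lmFit, eBayes with a trend, R 4.3.3) on all 12 libraries, with group and replicate number, two-sided, with Benjamini-Hochberg adjustment over 10982 genes and a threshold of 0.05. Neither the meaning of the replicate numbers nor separate cultures are given in the labels, so a p measures the spread between these libraries only. The numbers were taken to pair the libraries, since deviations from group means correlated at 0.383 to 0.784 in all 12 same-numbered pairs. Differently numbered libraries reached up to 0.746, and in 19 of 24 cases the highest correlation was with the same number. The departure contrast is sgRNA2 minus the point 44.6% of the way from sgRNA1 to control. It, the slope and the comparisons with control share control libraries. Coordinates, the longest coding transcript of each gene, its length and GC content came from GENCODE 29, start windows from RefSeq, matched by symbol. A total of 56 symbols in the table were missing or turned into dates, so genes were followed by Ensembl identifier. The genes named were the cold-shock relatives, the 8 of smallest p per direction for the guides, up to 8 per direction for the slope, 8 for the departure, 15 from earlier results and up to 4 past the threshold per list. Members, gene lists and this rule were chosen with earlier results of these data known. The scripts were tested on simulated data. Figures were drawn with matplotlib 3.10.9, and tables were made with scipy 1.17.1, numpy 2.4.6 and pandas 2.3.3 in Python 3.11.15. A total of 25 alternatives were run.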

Additional observations from a re-analysis of the deposited data

Results flagged for a closer look

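YBX1 differed between the guides by 0.75 on the log2 scale, by a test of the difference itself. UBA7 lay above control with sgRNA2 and at or slightly below it with sgRNA1 in all 4 numbers, with a difference of 0.18 between the guides. The opposite directions were not tested as such. Over all genes 23.9% had the means of the guides on opposite sides of control. Among genes with an unadjusted p under 0.05 for the difference between the guides (limma) the share was 55.7%. Among the 96 groups of 4 libraries looked at, 5 held a library apart from the rest, where about 1 in 20 is flagged without any cause. These were sgRNA2 library 1 for NOP53 (12.63) and RPL4 (14.66), sgRNA2 library 2 for DHRS9 (8.51), sgRNA1 library 2 for S100A4 (9.31) and control 2 for ADA2 (8.67).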

How the results depend on the processing

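All 25 alternatives kept YBX1 higher with sgRNA2 and past the threshold. The difference between the guides changed sign for some named genes, as in 7 alternatives for MYC, 6 for G3BP1 and 5 for ADA2. Including YBX1, the count for the difference between the guides (1) was 25 with the 8 guide libraries alone, 2 with quantile scaling, 2 with a robust spread, 10 in libraries 1 and 2, 75 in libraries 3 and 4 and 1 to 4 with a library or number left out. The count in the order of YBX1 (1) was 2 with quantile scaling, 2 with a robust spread, 7 in libraries 1 and 2, 4 in libraries 3 and 4 and 1 to 3 with one left out. Gene lists with a member past the threshold (0) were 5 with the guide libraries alone, 3 with quantile scaling, 3 with a robust spread, 4 in libraries 1 and 2, 8 in libraries 3 and 4 and 0 to 3 with one left out. Without the replicate number as a block, the pairing being dropped, YBX1 still differed by 0.75 (adjusted p = 0.00133), the guides against control gave 6 genes (695 with the block), the slope 4 (389) and the departure 0 (11). Without the filter on the mean these counts were 296, 119 and 0. Leaving out a library or number gave 171 to 904, 81 to 793 and 0 to 59. Libraries 3 and 4 alone gave 353 for the guides against control, 191 for the slope and 266 for the departure, and libraries 1 and 2 gave 848 for the slope. The causes of these shifts were not tested. Depth is unknown, and shrinkage of weak genes limits what the departures and slopes can show.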
